A study of Mus musculus with 2 samples.

Results

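The cells described here are Th17 CD4 T cells of the colonic lamina propria (LP), taken from 1 single-cell RNA-seq library labelled WT and 1 labelled Ring1AKO. A barcode was kept as a cell with at least 1000 unique molecular identifiers (UMIs, each standing for 1 captured transcript), at least 500 genes and less than 5% mitochondrial UMIs. A kept cell was a member with at least 2 UMIs of Cd3e, Cd3d and Cd3g together, at least 1 of Cd4 and Cd40lg, at least 1 of Il17a and Il17f, and 0 of Foxp3, Cd8a, Cd8b1, Cd163l1, Trdc, Cd79a and Csf1r. The members were thus chosen by measured UMIs of these 14 genes, which are described below and not tested. This gave 139 members among 13923 kept cells, 91 of 6005 in WT and 48 of 7918 in Ring1AKO, as the libraries are called below by their labels.

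The study asked how the loss of Ring1a, a subunit of Polycomb repressive complex 1 that ubiquitinates histone H2A, affects colonic immune cells in colitis. Live CD45+ cells were sorted from the LP of C57BL/6 mice with colitis induced by dextran sulfate sodium (DSS) in the drinking water, which both groups received. The labels give an age of 8 to 10 weeks. The WT mice carried intact Ring1a and the Ring1AKO mice were knockouts of it. The study describes the knockout as whole-body, and the sources used here name no Cre driver. Cells of 5 mice were pooled into each library, so each genotype had 1 library and no replicates. The libraries could therefore not be tested against each other, and genotype cannot be told apart from any batch effect. All intervals below are 95% intervals that cover counting error only.

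Th17 cells are helper T cells that secrete IL-17A, IL-17F and often IL-22. The nuclear receptor RORα takes part in their program, and IL-23, IL-1β and IL-6 drive their differentiation and maintenance. In the gut they are induced by commensal bacteria, and their cytokines act on the epithelium to induce antimicrobial peptides and neutrophil-attracting chemokines.

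Il17a and Il17f, the cytokine genes that defined the members, lie as neighbours on chromosome 1 of GRCm38, Il17a from 20730905 to 20734496 on the plus strand and Il17f from 20777146 to 20790617 on the minus strand. Il23r, the gene of the IL-23 receptor subunit that gives the receptor its specificity, lies on chromosome 6 from 67422932 to 67491855 on the minus strand. The 250 bases before the RefSeq starts of these genes are shown because RORα is known to bind the half-site AGGTCA, and the capitals mark AGGTCA or its reverse complement TGACCT. The windows are chr1:20730655-20730904 for Il17a, chr1:20784271-20784520 for Il17f and chr6:67491856-67492105 for Il23r (GRCm38.p6), each written 5′ to 3′ on the strand of its gene. The gene spans are those of GENCODE, and the RefSeq start of Il17f used for the window lies inside its GENCODE span.
Il17a: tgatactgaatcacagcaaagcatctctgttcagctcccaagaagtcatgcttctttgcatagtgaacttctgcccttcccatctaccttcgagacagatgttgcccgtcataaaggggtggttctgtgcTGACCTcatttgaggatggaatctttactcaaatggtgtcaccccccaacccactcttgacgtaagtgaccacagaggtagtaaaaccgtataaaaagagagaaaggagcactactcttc
Il17f: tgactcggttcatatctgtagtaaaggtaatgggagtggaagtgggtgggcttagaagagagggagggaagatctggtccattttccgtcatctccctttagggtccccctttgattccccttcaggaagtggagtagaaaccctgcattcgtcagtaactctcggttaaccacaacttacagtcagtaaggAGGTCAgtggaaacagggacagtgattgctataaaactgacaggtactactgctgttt
Il23r: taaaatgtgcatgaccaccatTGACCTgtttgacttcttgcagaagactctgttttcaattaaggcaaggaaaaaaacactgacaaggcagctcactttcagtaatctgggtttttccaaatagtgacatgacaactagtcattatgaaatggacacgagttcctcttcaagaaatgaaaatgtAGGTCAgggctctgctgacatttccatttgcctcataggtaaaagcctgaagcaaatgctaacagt

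The half-site began 120 bases before the RefSeq start of Il17a and 58 bases before that of Il17f, and it occurred at 2 places before Il23r, the first 229 bases before the start. Of 32851 windows of the same length in the RefSeq table, 4607 (14.0%) held the half-site on either strand. The windows before Il22, Il1r1, Tnfsf8 and Cxcl3 held none, and 1 of the 2 starts of Ccr6 had it, 44 bases upstream. The half-site was searched after the sequences had been seen, and a match describes the letters of a window, not binding.

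The members carried the features of conventional αβ T helper cells. Their median depth was 7168 UMIs and 2188 genes per cell in WT and 6934.5 UMIs and 2051.5 genes in Ring1AKO, with 2.29% and 2.71% mitochondrial UMIs. Gene levels were summed over the members and scaled to their summed UMIs, 731023 and 425240, as counts per 1000000 UMIs (CPM). Trac, the constant region of the T-cell-receptor α chain, was at 599 CPM in the WT members and at 710.2 CPM in those of Ring1AKO. Cd28, the main costimulatory receptor, was found in 86 of 91 and 46 of 48 members.

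The markers of other lineages were summed in the members. The rule set Trdc, Cd163l1, Cd79a and Csf1r, markers of γδ T, B and macrophage lineages, at 0 in the members. The γδ T cells were chosen by a Trdc or Cd163l1 UMI. Sums that include these genes were therefore fixed in part by the choice of cells. The 9 γδ T cell markers summed to 58.8 CPM in both groups of members, against 2234 and 1490.0 CPM in the 13 and 38 γδ T cells that also carried an Il17a or Il17f UMI. All 7 markers of innate-like T cells were at 0 in the WT members and summed to 9.41 CPM in those of Ring1AKO. The 8 B cell markers summed to 12.3 and 25.9 CPM, and the most abundant of them, Pax5, reached 2.74 and 7.05 CPM. The 9 macrophage and monocyte markers summed to 101 and 103.5 CPM, with Lyz2 the most abundant at 41.0 and 47.0 CPM. The 8 neutrophil markers summed to 119 and 285 CPM, with Il1b the most abundant at 75.2 and 198 CPM, and to 161 CPM in Ring1AKO without the 1 member with dendritic transcripts. The 8 markers of innate lymphoid cells summed to 187 and 574 CPM, of which Calca alone made up 120.4 and 475 CPM. The part of such cells in the results was not tested. Immunoglobulin transcripts of plasma cells were present in the members at 4171 and 4884 CPM over 7 markers, led by Igkc. These are the transcripts that lead the cell-free RNA of both libraries, in which Igha alone was at 69469 and 58438 CPM. Taken as wholly cell-free, the Igha, Igkc and Jchain levels put the cell-free share of the UMIs of the members at 2.12% and 2.81%.

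A single Ring1AKO member held transcripts of dendritic cells. It had 21346 UMIs and 3722 genes, 5.02% of all UMIs of the Ring1AKO members, with 585 UMIs of Cd74, 238 of H2-Aa, 16 of the dendritic cell gene Cd209a, 48 of Tyrobp and 54 of Il1b beside 11 UMIs of the CD3 genes and 6 of Il17a. No doublet caller was run, and whether the barcode held more than 1 cell was not tested. The values that rest on it are given below with and without it. The deepest Ring1AKO members were 2 other cells, with 34370 and 33243 UMIs and 5245 and 5189 genes, or 8.08% and 7.82% of the member UMIs, against a WT maximum of 20302 UMIs. They held 15 and 37 UMIs of the CD3 genes and no Il22. The 3 Ring1AKO members above 20000 UMIs held 20.9% of the member UMIs and the 1 WT member 2.78%. Of 82 genes rerun whose interval lay beyond 0, 10 had an interval that held 0 with members of at most 20000 UMIs, and the counts of heat shock, glycolysis and cell cycle genes are given below with that limit too, a choice made after seeing the data.

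The rule used at least 1 UMI of Il17a and Il17f, so cells at this limit were examined. Of the members, 79 in WT and 36 in Ring1AKO had 2 or more of these UMIs, and 12 in each library had exactly 1. Il23r was detected in 3 and 1 of the 12 members with a single IL-17 UMI and in 29 and 5 of the 79 and 36 with more. Just outside the rule, 21 and 18 cells met all other criteria but had no Cd4 or Cd40lg UMI, and 15 and 15 cells had fewer than 2 CD3 UMIs. A further 64 and 36 cells carried at least 1 of the excluded genes, and none were removed by the cell filters alone.

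Free RNA can place an Il17a or Il17f UMI in a cell that does not make it. Among B cells, which should lack both genes, 55 of 1626 in WT (3.38%, 2.56 to 4.38) and 46 of 3844 in Ring1AKO (1.20%, 0.877 to 1.59) had such a UMI, at median depths of 5287 and 4484 UMIs. Among conventional CD4 T cells, defined as the members plus cells of the same rule without an IL-17 UMI, the shares were 19.4% and 13.1% at 5461 and 5483.5 UMIs. After thinning each cell to 2000 UMIs, the share was 0.803% and 0.290% in B cells and 16.3% and 10.4% in conventional CD4 T cells. The share in CD4 T cells was above that in B cells in both libraries. Foxp3 cells had an IL-17 UMI in 9 of 186 and 7 of 182 cells, or 4.84% (2.24 to 8.99) and 3.85% (1.56 to 7.76), intervals that overlap those of B cells in both libraries. In Ring1AKO this overlap was only from 1.56% to 1.59%. Thinned, these shares were 2.69% and 1.10% of Foxp3 cells. The summed Il17a level was higher in Foxp3 cells than in B cells, at 21.04 and 78.56 CPM against 2.13 and 1.32 CPM. It rested on 25 and 116 Il17a UMIs, and Il17f gave 1 and 0 UMIs in Foxp3 cells. The log2 ratio of Il17a, Ring1AKO over WT, was 1.90 (1.27 to 2.59) in Foxp3 cells. The part of free RNA in these UMIs was not tested.

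Th17 cells made up a smaller share of the library labelled Ring1AKO. Of all kept cells they were 1.52% (1.22 to 1.86) in WT and 0.606% (0.447 to 0.803) in Ring1AKO, a log2 ratio of -1.32 (-1.82 to -0.82). B cells took 1626 of 6005 kept WT cells and 3844 of 7918 in Ring1AKO, and shares of one library add up to the whole. Without B and plasma cells, Th17 cells made up 2.41% and 1.68%, a log2 ratio of -0.52 (-1.02 to -0.02). Among T cells they were 5.66% (4.58 to 6.91) and 3.16% (2.34 to 4.17), and the log2 ratio was -0.84 (-1.33 to -0.35).

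Within conventional CD4 T cells, Th17 cells were 91 of 468 (19.4%, 15.95 to 23.3) and 48 of 366 (13.1%, 9.83 to 17.0), a log2 ratio of -0.57 (-1.03 to -0.10). The intervals of the shares overlapped here, while the interval of the ratio lay below 0. With at least 2 IL-17 UMIs required, the ratio was -0.77. The γδ T cells with an IL-17 UMI went the other way, from 0.216% (0.115 to 0.370) to 0.480% (0.340 to 0.658) of kept cells, a log2 ratio of 1.15 (0.24 to 2.06) on 13 and 38 cells. A smaller share in one library can reflect fewer Th17 cells or a lower Il17a and Il17f level per cell, since the rule reads these genes, and the libraries do not tell these apart.

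**Figure D1:**
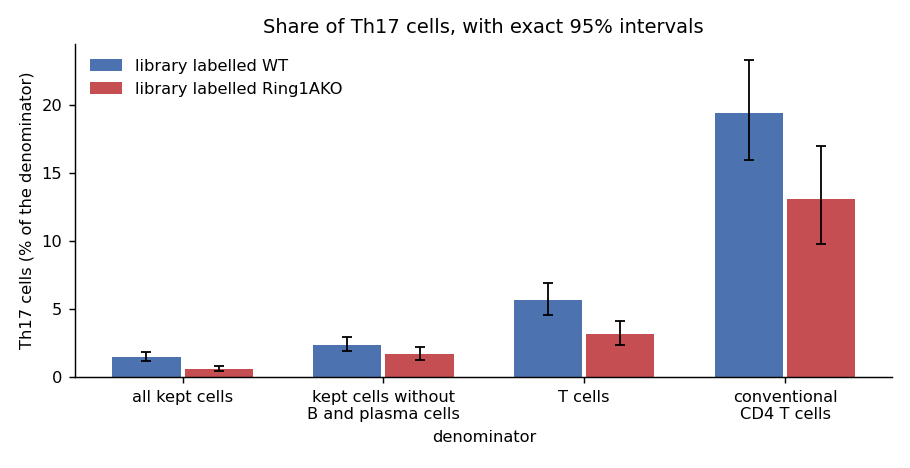
Share of Th17 cells (%) by denominator in WT (blue) and Ring1AKO (red), with exact 95% Clopper-Pearson intervals of counting error. The share was lower in Ring1AKO under each of the 4 denominators, from 1.52% against 0.606% of kept cells to 19.4% against 13.1% of conventional CD4 T cells.

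Il17a and Il17f chose the cells, so their levels are given as a description. Il17a was found in 80 of 91 WT members and 42 of 48 in Ring1AKO, with a median of 10.7 and 5.50 UMIs per 10000 UMIs of the cell and a maximum of 212 and 165. Its summed level was 2232 CPM (2125 to 2343) and 1646 CPM (1526 to 1773), a log2 ratio of -0.44 (-0.57 to -0.31). At 2000 UMIs per cell the log2 ratio was 0.018 (-0.22 to 0.25). The 5 cells with the most Il17a held 34.9% of its UMIs in WT and 61.3% in Ring1AKO.

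Il17f was found in 53 of 91 WT members (58.2%, 47.4 to 68.5) and in 13 of 48 in Ring1AKO (27.1%, 15.3 to 41.8). Its level was 788 CPM (725 to 855) and 263 CPM (217 to 317), a log2 ratio of -1.58 (-1.89 to -1.29). At 2000 UMIs per cell, Il17f was detected in 37.4% (27.4 to 48.1) and 22.9% (12.0 to 37.3). Members with UMIs of both genes numbered 42 of 91 (46.2%, 35.6 to 56.9) and 7 of 48 (14.6%, 6.07 to 27.8). Members with Il17a alone numbered 38 and 35, and those with Il17f alone 11 and 6.

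**Figure D2:**
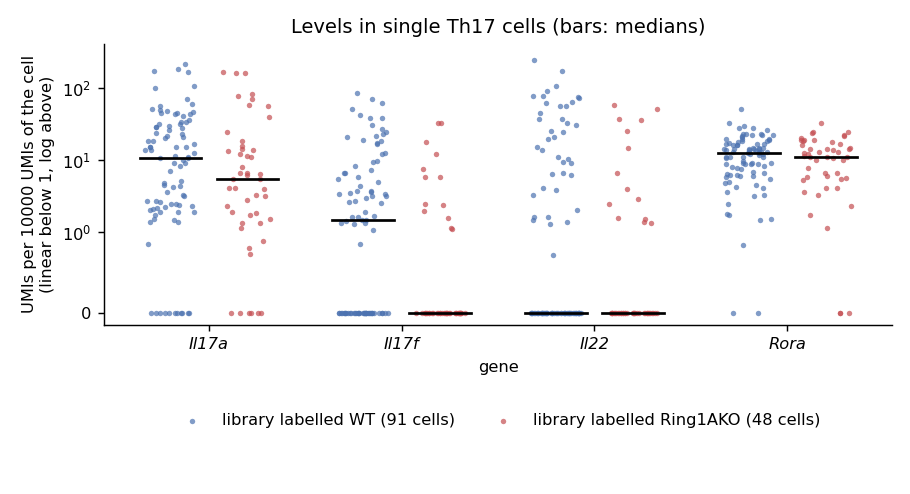
UMIs of Il17a, Il17f, Il22 and Rora per 10000 UMIs of the cell in the 91 Th17 WT cells (blue) and the 48 in Ring1AKO (red), on an axis that is linear below 1 and logarithmic above; each point is 1 cell and each bar a median. Il17f was at 0 in 38 WT and 35 Ring1AKO cells, and Il22, detected in 40 and 14 cells, was at 0 in most cells of both libraries.

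Of the other effector cytokine genes, Il22 had the highest level in the WT members, while in Ring1AKO Tnfsf8 was above it, at 630.2 CPM. Il22, which acts on epithelial cells, was at 1839 CPM (1742 to 1939.5) in 40 of 91 WT members and at 604 CPM (533 to 683) in 14 of 48 Ring1AKO members, a log2 ratio of -1.61 (-1.80 to -1.41). The intervals of these levels lay apart, whereas those of the shares of members with a UMI, 44.0% (33.6 to 54.8) and 29.2% (17.0 to 44.1), overlapped. A single cell held 33.1% of the Il22 Ring1AKO UMIs and 10.5% of those of WT. Without the member with dendritic transcripts, the log2 ratio was -1.53 (-1.73 to -1.34).

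Il22 was also summed by the IL-17 genes of the cell. In Ring1AKO it was at 2174 CPM in the 7 members with both Il17a and Il17f and at 295 CPM in the 35 members with Il17a alone. In the library labelled WT these levels were 2138 CPM in 42 members and 1751 CPM in 38. The members with Il17f alone were at 1014 CPM in 11 WT cells and at 683 CPM in 6 Ring1AKO cells. Of the 118 Il22 UMIs in the Ring1AKO members with both genes, 85 came from 1 cell. Without the cell with the most Il22 UMIs in each library, left out after seeing the data, the members with both genes were at 1803 CPM (1662 to 1953) in WT and at 839.95 CPM (578 to 1180) in Ring1AKO. In IL-17-negative conventional CD4 T cells Il22 was at 100.1 and 16.1 CPM, a log2 ratio of -2.64 (-3.24 to -2.08). The cell-free RNA held Il22 at 212 and 228 CPM.

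Of 19 effector cytokine genes, 12 had at least 50 UMIs over the members of both libraries, and 3 were at least 2-fold lower and 3 at least 2-fold higher in Ring1AKO. Over all 3167 genes with at least 50 UMIs, 186 were lower by this measure (5.87%) and 92 higher (2.90%), and the median log2 ratio was -0.04. The effector genes that were lower were Il22, Il2 and Ccl20. Il2, the T cell growth factor, was found in 10 members at 157 CPM in WT and in 3 members at 7.05 CPM in Ring1AKO, but 1 WT cell held 53.0% of its UMIs. Ccl20, the ligand of Ccr6, was detected in 4 and 1 members only, and 1 WT cell held 84.2% of its UMIs.

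The effector genes past 2-fold higher in Ring1AKO rested on few cells. Il4 came from 5 members in each library, at 19.2 and 118 CPM, and all 60 UMIs of Il13 in the Ring1AKO members came from 1 cell. Il10, an anti-inflammatory cytokine, came from 5 and 6 members at 23.3 and 91.7 CPM. The genes with broader detection moved less. Tnfsf8, the CD30 ligand, was found in 78 and 40 members at 1060.2 CPM (987 to 1138) and 630.2 CPM (557 to 710.4), a log2 ratio of -0.75 (-0.96 to -0.55), whereas in IL-17-negative cells its ratio was 0.17 (0.04 to 0.29). Tnfsf11, which encodes RANKL, was at 326 and 315 CPM, and its log2 ratio of -0.05 had an interval of -0.36 to 0.26. Areg, a growth factor of tissue repair, was at 741 and 397 CPM, with 51.1% and 47.3% of its UMIs in 1 cell of each library.

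Ifng and Csf2 were detected in few members. Ifng, the Th1 cytokine, was detected in 5 of 91 (5.49%, 1.81 to 12.4) and 2 of 48 members (4.17%, 0.509 to 14.3). Csf2, which encodes GM-CSF, was detected in 2 members of each library. Tnf was found in 11 (12.1%, 6.19 to 20.6) and 15 members (31.2%, 18.7 to 46.3), and at 2000 UMIs per cell in 5 and 6, where the intervals overlapped broadly. Of the 19 genes, 7 had a UMI in at least 10% of the members of both libraries.

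**Figure D3:**
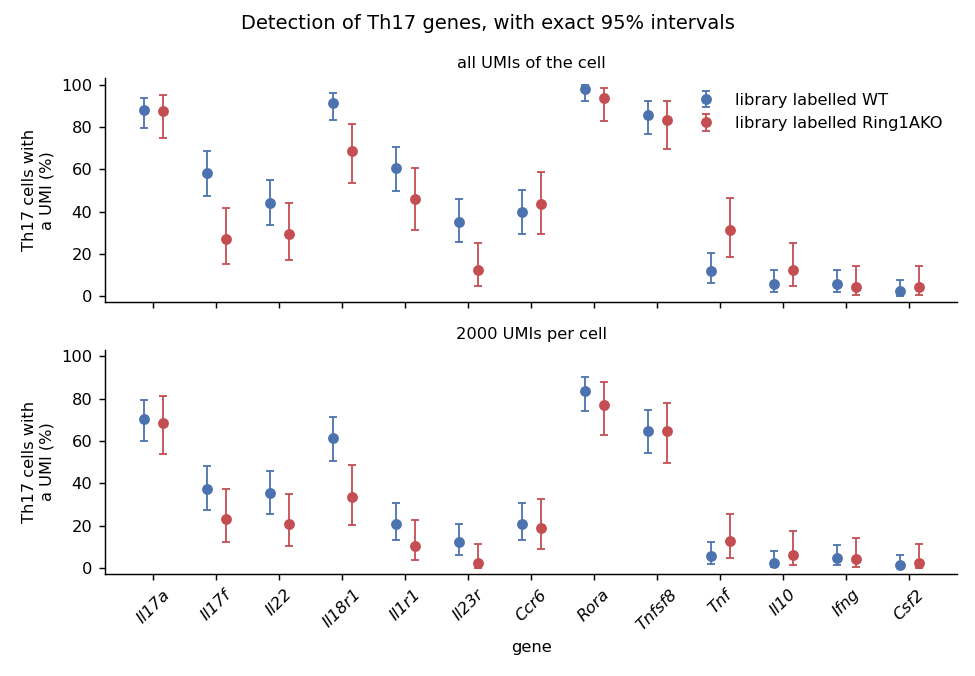
Share of Th17 cells with at least 1 UMI of each gene (%), with exact 95% intervals, in the 91 WT members (blue) and the 48 in Ring1AKO (red), with all UMIs of a cell (top) and after thinning each cell to 2000 UMIs (bottom). Il17f, Il18r1 and Il23r showed the widest gaps among the genes plotted with all UMIs, and Ifng and Csf2 were below 10% in both libraries.

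Of 12 receptor genes of the Th17 axis with at least 50 UMIs, 5 were at least 2-fold lower and 1 was higher, against 5.87% and 2.90% of all genes, and 8 had a lower level with an interval below 0, against 18.1% of all genes tested by that measure. Il21r, Tgfbr2 and Il2rb, with log2 ratios of -0.21, -0.40 and 0.12, had intervals that held 0. The chains of the IL-6 receptor had fewer than 50 UMIs and were not compared, with Il6st found in 6 of 91 (6.59%) and 10 of 48 (20.8%) members and Il6ra in 3 of 91 (3.30%) and 5 of 48 (10.4%). The median log2 ratio of these genes was -0.72. Il18r1, the ligand-binding chain of the IL-18 receptor, was at 617 CPM (561 to 677) in 83 WT members and at 245 CPM (199.8 to 296) in 33 in Ring1AKO, a log2 ratio of -1.33 (-1.66 to -1.02). Its partner Il18rap was at 99.9 and 44.7 CPM, a log2 ratio of -1.16 (-1.97 to -0.42). At 2000 UMIs per cell Il18rap was found in 7 of 91 (7.69%) and 7 of 48 (14.6%) members, and its log2 ratio turned to 0.79 (-0.61 to 2.16). At 2000 UMIs per cell, Il18r1 was detected in 61.5% (50.8 to 71.6) and 33.3% (20.4 to 48.4) of members, intervals that do not overlap. In IL-17-negative cells the ratios of Il18r1 and Il18rap were in the same direction, -0.87 (-1.11 to -0.64) and -0.89 (-1.26 to -0.53).

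Il23r was detected in 32 of 91 WT members (35.2%, 25.4 to 45.9) and in 6 of 48 in Ring1AKO (12.5%, 4.73 to 25.2). Its level was 61.6 CPM (44.9 to 82.4) and 16.5 CPM (6.62 to 33.9), a log2 ratio of -1.90 (-3.30 to -0.74) on 45 and 7 UMIs. At 2000 UMIs per cell it was detected in 11 and 1 members, too few for intervals that separate. Il1r1, the signalling receptor for IL-1, was at 186 CPM (156 to 220.1) in 55 members and at 84.7 CPM (59.3 to 117) in 22, a log2 ratio of -1.14 (-1.71 to -0.60). Il17re, a subunit of the IL-17C receptor, was at 61.6 and 18.8 CPM, a log2 ratio of -1.71 (-3.01 to -0.61).

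Il7r, Il2rb and Il2ra encode receptor chains of the common γ chain family. Il7r, the receptor for the survival cytokine IL-7, was at 981 CPM (910.3 to 1055) and 562 CPM (493 to 638), a log2 ratio of -0.80 (-1.02 to -0.59), and in IL-17-negative cells the ratio was -0.28 (-0.43 to -0.14). Il2rb was at 440.5 and 477 CPM, a log2 ratio of 0.12 (-0.14 to 0.37). Il2ra, the α chain of the IL-2 receptor, was higher, at 82.1 and 174 CPM, a log2 ratio of 1.08 (0.57 to 1.60), with 41.9% of its Ring1AKO UMIs in 1 cell, and its log2 ratio was -0.077 (-1.51 to 1.23) at 2000 UMIs per cell.

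Of 13 transcription factors of the Th17 program with at least 50 UMIs, 1 was at least 2-fold lower, against 5.87% of all genes tested, and none higher. A total of 7 had a lower level beyond counting error and 1 a higher level, against 18.1% and 12.9% of all genes, and the median log2 ratio was -0.31. Rora was found in 89 and 45 members at 1201 CPM (1123 to 1283) and 971 CPM (879.8 to 1069.6), a log2 ratio of -0.31 (-0.48 to -0.14) that was -0.14 (-0.32 to 0.040) with members of at most 20000 UMIs. The ratio of Rora was further below 0 in IL-17-negative cells, -0.61 (-0.73 to -0.49), and in Foxp3 cells, -0.79 (-0.91 to -0.67). Runx1, a Runt-family factor that takes part in Th17 differentiation, was the gene past 2-fold, at 186 CPM (156 to 220.1) and 89.4 CPM (63.2 to 123), a log2 ratio of -1.06 (-1.62 to -0.53). For Runx1 the ratio was -0.35 (-0.61 to -0.10) in IL-17-negative cells and -0.22 (-0.52 to 0.09) in Foxp3 cells.

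Hif1a, the hypoxia factor that favours glycolysis, was at 788 CPM (725 to 855) and 466 CPM (403 to 535), a log2 ratio of -0.76 with an interval below 0, against -0.16 (-0.28 to -0.05) in IL-17-negative cells. Satb1, a chromatin organizer, had a log2 ratio of -0.62 (-0.84 to -0.40) in the members and 0.08 (-0.03 to 0.19) in IL-17-negative cells. In Foxp3 cells the ratios of Hif1a and Satb1 were -0.56 (-0.71 to -0.42) and -0.38 (-0.61 to -0.14). Maf was at 875 and 654 CPM, with a log2 ratio of 0.060 where no exclusion genes were used, and Batf at 167 and 188 CPM, the latter with a log2 ratio of 0.17 (-0.25 to 0.59). By the main rule the ratio of Maf was -0.42 (-0.63 to -0.22). It was -0.30 (-0.39 to -0.20) in IL-17-negative and -0.52 (-0.62 to -0.43) in Foxp3 cells. Nfkbiz, an inducer of Th17 genes, was higher, at 280.4 and 399.8 CPM, a log2 ratio of 0.51 (0.21 to 0.81), and with no exclusion genes it was -0.13 (-0.35 to 0.083). The difference of these ratios between members and IL-17-negative or Foxp3 cells was not tested.

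Homing genes of the members split in direction. Of 14 tested, 5 were lower and 5 higher beyond counting error, against 18.1% and 12.9% of all genes. Ccr6, the chemokine receptor typical of Th17 cells, was at 93.0 CPM (72.2 to 118) in 36 members and at 89.4 CPM (63.2 to 123) in 21, a log2 ratio of -0.06 (-0.67 to 0.54). Ccr2 was at 305 CPM (266 to 348) and 94.1 CPM (67.2 to 128), a log2 ratio of -1.70 (-2.22 to -1.21), against -0.54 (-0.83 to -0.26) in IL-17-negative cells. With no exclusion genes, the ratio of Ccr2 in the members was -0.74. Itgb1, the integrin β1 chain, was at 176 and 68.2 CPM, a log2 ratio of -1.37 (-2.01 to -0.78), and was lower in IL-17-negative cells as well, with -1.92 (-2.34 to -1.52). Cxcr6, a receptor of tissue-resident T cells, was at 462 and 299 CPM, a log2 ratio of -0.63 (-0.94 to -0.33).

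Ccr7 and Klf2 were among those higher. Ccr7, which guides T cells to lymph nodes, was at 80.7 CPM (61.4 to 104) in 28 WT members and at 235 CPM (191 to 286) in 13 in Ring1AKO, a log2 ratio of 1.54 (1.06 to 2.03), with 30.0% of the Ring1AKO UMIs in 1 cell. It was also higher in IL-17-negative cells, with 1.14 (0.96 to 1.31). Klf2, a factor that promotes egress, was at 249 and 423 CPM, a log2 ratio of 0.77 (0.46 to 1.07) in the members and 0.07 (-0.05 to 0.20) in IL-17-negative cells.

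**Figure D4:**
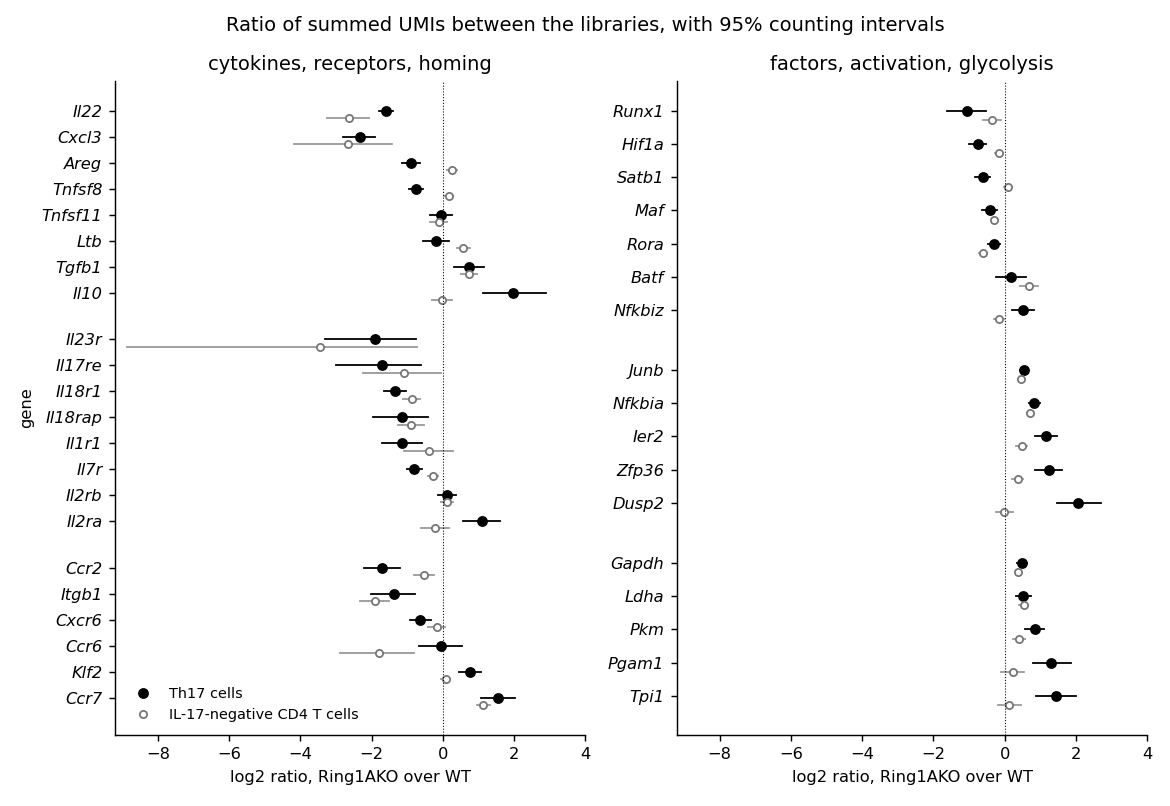
Log2 ratio of summed UMIs, Ring1AKO over WT, for genes of 6 groups in Th17 cells (black, filled) and IL-17-negative conventional CD4 T cells (grey, open), with exact 95% counting intervals. Il22, Il18r1, Il23r and Ccr2 lay below 0 and Ier2, Zfp36, Dusp2, Pgam1 and Tpi1 above 0 in Th17 cells, of which Pgam1 was at -0.077 at 2000 UMIs per cell.

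Of 17 immediate-early genes tested, 11 were higher and 2 lower beyond counting error, against 12.9% and 18.1% of all genes, and the median log2 ratio was 0.49. Junb, an AP-1 subunit, was found in 91 and 47 members at 2341 CPM (2231 to 2454) and 3393 CPM (3221 to 3573), a log2 ratio of 0.54 (0.43 to 0.64). Nfkbia, the NF-κB inhibitor IκBα, was at 907 and 1608 CPM, a log2 ratio of 0.83 (0.67 to 0.98). The ratios of both were close in IL-17-negative cells, 0.46 (0.41 to 0.52) and 0.70 (0.62 to 0.78).

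Past 2-fold were Ier2, Zfp36 and Dusp2. Ier2, an immediate-early gene, was at 209 and 466 CPM, and Zfp36, which promotes decay of cytokine mRNAs, at 146 and 343 CPM. The log2 ratio of Zfp36 was 1.23, and 0.14 (-0.054 to 0.34) with no exclusion genes. Dusp2, a phosphatase of MAP kinases, was detected in 18 of 91 and 26 of 48 members at 45.1 CPM (31.1 to 63.4) and 188 CPM (149 to 234), a log2 ratio of 2.06 (1.46 to 2.69), and in IL-17-negative cells its ratio was -0.01 (-0.24 to 0.22). Immediate-early genes also respond to tissue digestion, and of 8 heat shock genes 6 were higher and none lower beyond counting error, against 12.9% and 18.1% of all genes. With members of at most 20000 UMIs, 3 of the 8 were higher and none lower, against 11.3% and 15.8% of all genes at that limit. The part of handling in these values was not tested.

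Of 11 glycolysis genes tested, 8 were higher and none lower beyond counting error, against 12.9% and 18.1% of all genes, and the median log2 ratio was 0.52. Gapdh was at 1331 CPM (1249 to 1417) and 1855 CPM (1728 to 1989.5), a log2 ratio of 0.48 (0.34 to 0.62). Pgam1 was at 71.1 and 176 CPM, a log2 ratio of 1.31 (0.78 to 1.85) that was -0.077 (-1.41 to 1.15) at 2000 UMIs per cell, and Tpi1 at 60.2 and 162 CPM, a log2 ratio of 1.43 (0.86 to 2.01). For Tpi1, 33.3% of the Ring1AKO UMIs came from 1 cell. With members of at most 20000 UMIs, 5 of the 11 were higher and none lower, against 11.3% and 15.8% of all genes at that limit. The log2 ratios of Pgam1 and Tpi1 were then 0.65 and 0.64, with intervals that held 0. In IL-17-negative cells the ratios of Gapdh and Ldha were similar in size, 0.37 (0.29 to 0.45) and 0.54 (0.41 to 0.67), and those of Pgam1 and Tpi1 had intervals that held 0. In Foxp3 cells Pgam1 had a ratio of 1.07 (0.74 to 1.41) and Tpi1 of 0.62 (0.36 to 0.90).

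Of 11 genes of costimulation and checkpoints tested, 4 were higher and 2 lower beyond counting error, against 12.9% and 18.1% of all genes. Past 2-fold were Cd27, with a log2 ratio of 1.46 (0.61 to 2.34), and Btla, with -1.15 (-2.26 to -0.17). Ctla4 was at 1651 CPM (1559 to 1747) and 1517 CPM (1402 to 1638), and Cd28 at 1036 and 1011 CPM, with log2 ratios of -0.12 (-0.26 to 0.02) and -0.03 (-0.21 to 0.14). Tnfrsf4, which encodes OX40, was at 354 CPM (312 to 400.2) and 682 CPM (606 to 765), a log2 ratio of 0.94 (0.70 to 1.19). Cd6, a T cell adhesion receptor, was at 183 and 353 CPM, a log2 ratio of 0.94 (0.60 to 1.29). In IL-17-negative cells these were 0.49 (0.36 to 0.63) and 0.32 (0.16 to 0.48).

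Among all genes, the largest falls in the Th17 cells included linker histones. H1f4, which encodes a variant of the linker histone H1, lies on chromosome 13 of GRCm38 (23620629 to 23622558). It was found in 38 of 91 members at 350.2 CPM (309 to 396) and in 7 of 48 at 18.8 CPM (8.12 to 37.1), a log2 ratio of -4.22 (-5.45 to -3.22). H1f2 was at 198 and 47.0 CPM, H1f5 at 286 and 23.5 CPM and the core histone gene H3c3 at 149 and 11.8 CPM. H1f5 and H3c3 came from 14 and 6 WT members and 5 and 3 in Ring1AKO. Over the alternatives run, the log2 ratio of H1f4 ranged from -4.57 to -2.57 and that of H1f2 from -2.71 to -1.05. The range was -4.89 to -1.88 for H1f5 and -4.96 to -2.78 for H3c3. In IL-17-negative cells H1f4 was at 144 and 40.2 CPM, a log2 ratio of -1.84 (-2.22 to -1.47), and H1f5 at 69.9 and 8.04 CPM. The ratio of H1f2 there was -0.32 (-0.59 to -0.05). Over all kept cells H1f4 was at 147 and 30.3 CPM, H1f5 at 64.2 and 9.53 CPM and H1f2 at 167 and 138 CPM. Foxp3 cells had ratios of -1.38 (-1.75 to -1.02) for H1f4 and -0.36 (-0.91 to 0.18) for H1f5. Most histone transcripts carry no long poly(A) tail, so a 3′ library captures them poorly.

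Mki67 and Top2a, genes of proliferating cells, were lower. Mki67 was detected in 22 of 91 and 6 of 48 members at 189 and 54.1 CPM, a log2 ratio of -1.80 (-2.51 to -1.16), and Top2a in 27 and 10 members at 213 and 82.3 CPM. Ube2c, a mitotic ubiquitin-conjugating enzyme, was at 116 and 11.8 CPM in 11 and 3 members. At 2000 UMIs per cell the log2 ratios of Mki67 and Top2a were -0.95 and -0.54. That of Ube2c was -0.76 with no exclusion genes. Of 7 cell cycle genes tested, 3 were lower and 2 higher beyond counting error, against 18.1% and 12.9% of all genes, with a median log2 ratio of 0.02. With members of at most 20000 UMIs, 6 were tested, of which 2 were lower and 1 higher, against 15.8% and 11.3% of all genes at that limit.

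Cep350, Atf6 and Pde5a were lower as well. Cep350, a centrosome protein gene, was found in 50 WT members and 8 in Ring1AKO at 108 and 21.2 CPM, a log2 ratio of -2.35 (-3.53 to -1.35). Atf6, a sensor of stress in the endoplasmic reticulum, was found in 46 and 8 members at 109 and 23.5 CPM, a log2 ratio of -2.22 (-3.33 to -1.27). Pde5a, a cGMP phosphodiesterase, was found in 34 and 7 members at 104 and 18.8 CPM. Cep350 and Atf6 were lower in IL-17-negative cells too, with log2 ratios of -1.16 and -1.21. Pde5a had a ratio of -2.50 (-4.48 to -0.98) there, on 27 and 4 UMIs, fewer than the minimum of 50. Malat1, an abundant nuclear RNA named here after its values were seen, was at 19251 and 12471 CPM in the members and at 25626 and 16947 CPM in IL-17-negative cells, and the part of RNA quality in these differences was not tested.

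The chemokine gene Cxcl3, a neutrophil attractant, was at 546 CPM (494 to 602) in 19 WT members and at 108 CPM (79.2 to 144) in 4 in Ring1AKO, a log2 ratio of -2.34 (-2.81 to -1.89). A single Ring1AKO cell held 71.7% of its UMIs there. Over the alternatives run, the log2 ratio of Cxcl3 ranged from -3.79 to -1.01. Of 9 tested genes of a pathogenic Th17 signature, 3 were at least 2-fold lower, namely Cxcl3, Il22 and Il23r, and 7 were lower beyond counting error, against 5.87% and 18.1% of all genes, with a median log2 ratio of -0.80. Gzmb was the 1 higher gene, at 204 and 350.4 CPM, with 61.7% of its Ring1AKO UMIs in 1 cell, and as a mean over cells its log2 ratio was -0.091. Ccl5 had a log2 ratio of -0.12 (-0.44 to 0.19).

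The largest rises rested on the member with dendritic transcripts. Cd74, the invariant chain of MHC class II, was at 131 CPM in 48 WT members and at 1583 CPM in 37 in Ring1AKO, and without that cell at 218 CPM, a log2 ratio of 0.73 (0.30 to 1.16) in place of 3.59. For H2-Aa the ratio went from 4.09 to 1.01 (0.21 to 1.81) and for H2-Ab1 from 3.28 to 0.23 (-0.39 to 0.84). H2-Eb1 had a ratio of 3.44 with the cell and of 0.82 (0.10 to 1.53) without it. Ifitm1 went from 4.04 to 0.05 and Tyrobp from 3.10 to -1.47, the latter with an interval of -4.70 to 0.76. Ifitm2 went from 2.68 to 1.13 (0.48 to 1.78) and Ifitm3 from 3.71 to 1.64 (0.50 to 2.86), on 47 and 19 Ring1AKO UMIs without the cell. In IL-17-negative cells Cd74 was at 93.8 and 482 CPM, a log2 ratio of 2.36 (2.14 to 2.59). Class II levels in the cell-free RNA were also higher in Ring1AKO, with Cd74 at 4230.3 and 6230 CPM.

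The targeted gene, Ring1, was sparse in the Th17 cells. It spans positions 34020792 to 34024680 of chromosome 17 in GRCm38 and gave 6 UMIs over the WT members and 5 over the Ring1AKO members, or 8.21 CPM (3.01 to 17.9) and 11.8 CPM (3.82 to 27.4). No difference was detectable at this depth in the members. Over all kept cells Ring1 gave 828 and 816 UMIs, or 13.4 and 11.8 CPM, and in B cells it was at 13.2 and 12.1 CPM. In IL-17-negative cells it was at 20.3 and 8.58 CPM on 45 and 16 UMIs, a log2 ratio of -1.24 (-2.16 to -0.39). Reads from the 3′ end need not cover the deleted part of a gene, so these levels do not check the genotype, which was taken from the labels. Of 10 Polycomb subunit genes tested, 1 was at least 2-fold higher and none 2-fold lower, against 2.90% and 5.87% of all genes. This was Ezh2, the H3K27 methyltransferase, at 49.2 and 98.8 CPM in 19 and 18 members, a log2 ratio of 1.00 (0.33 to 1.69). With at least 2 IL-17 UMIs required, the ratio of Ezh2 was 0.36. Beyond counting error, 1 of the 10 was higher and 2 lower, against 12.9% and 18.1% of all genes. Kdm2b, which recruits a variant Polycomb complex to CpG islands, was lower, with a log2 ratio of -0.44 (-0.80 to -0.09) that was -0.32 (-0.71 to 0.053) with members of at most 20000 UMIs.

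Of 10 interferon-γ response genes tested, 3 were lower and 1 higher beyond counting error, against 18.1% and 12.9% of all genes. By the 2-fold measure 1 was lower and 1 higher, against 5.87% and 2.90% of all genes. Gbp2 and Gbp4, which encode guanylate-binding proteins, had log2 ratios of -1.11 (-1.97 to -0.32) and -0.96 (-1.65 to -0.31). Socs1, an inhibitor of cytokine signalling, went the other way, at 60.2 and 151 CPM, a log2 ratio of 1.32 (0.75 to 1.91). In IL-17-negative cells these ratios were -1.18 for Gbp2, -0.75 for Gbp4 and 1.24 for Socs1.

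What set Th17 cells apart from IL-17-negative conventional CD4 T cells was then examined within each library, with 377 and 318 such cells at median depths of 5190 and 5399 UMIs. Of 4820 genes with at least 50 UMIs in each library, 41 (0.851%) were at least 2-fold higher in Th17 cells in both libraries and 49 (1.02%) at least 2-fold lower. Beside Il17a and Il17f, which the rule set at 0 in the other cells, Cxcl3 and Il22 led, with Il22 4.20 and 5.23 log2 units higher. Il1r1 was 3.04 and 2.30 log2 units higher. Il18r1, Cxcr6 and Tnfsf11 were also past 2-fold in both libraries.

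Several leading genes were not on the lists of Th17 genes. Tmem176a and Tmem176b, a pair of neighbouring ion channel genes, were at 423 and 346 CPM in the WT members against 85.7 and 79.8 CPM in the IL-17-negative cells. In the library labelled Ring1AKO they were at 279.8 and 289 CPM against 83.1 and 97.6 CPM. Ramp1, part of the receptor for the neuropeptide CGRP, was at 105 and 127 CPM in Th17 cells and at 29.3 and 25.2 CPM in IL-17-negative cells. Calca, which encodes CGRP itself, was at 120.4 and 475 CPM but came from 5 and 4 members, with 35.2% and 62.9% of its UMIs in 1 cell.

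Other genes higher in Th17 cells in both libraries were Actn2, Smox, S100a4, Lamc1 and Il1r2. Actn2, an actin cross-linker known from muscle, was at 226 and 122 CPM in Th17 cells against 49.6 and 37.5 CPM. Smox, spermine oxidase, was at 124 and 118 CPM against 36.5 and 38.6 CPM. Il1r2, the decoy receptor for IL-1, was at 87.5 and 155 CPM against 23.9 and 15.6 CPM, with 42.4% of its Ring1AKO UMIs in 1 cell. Foxp3 cells held Il1r2 at 102.7 and 148 CPM, S100a4 at 1569 and 1254 CPM and Lamc1 at 149.8 and 123 CPM, beside 1694 and 1369 CPM of S100a4 and 101 and 91.7 CPM of Lamc1 in Th17 cells.

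Ifng, Gzma, Gata3, Ikzf2, Izumo1r and Cd27 were lower in Th17 cells in both libraries. Ifng was at 10.9 and 37.6 CPM in Th17 cells and at 301 and 135 CPM in IL-17-negative cells. Gzma, a granzyme, was at 9.58 and 16.5 CPM against 108 and 116 CPM. Gata3, the Th2 regulator, was at 94.4 and 101 CPM against 211 and 248 CPM, and Ikzf2, the Treg-associated factor Helios, at 75.2 and 77.6 CPM against 263 and 173 CPM. Izumo1r, the folate receptor 4 of T cells, was at 5.47 CPM in 3 WT members and at 82.3 CPM in 10 in Ring1AKO, below the 126 and 213 CPM of IL-17-negative cells in both libraries. Cd27 was at 27.4 and 75.3 CPM against 178 and 210.2 CPM.

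Against Foxp3 cells, 67 of 4219 genes (1.59%) were at least 2-fold higher in Th17 cells in both libraries and 138 (3.27%) lower. Tnfsf8 was higher by 3.29 and 2.37 log2 units, Tnfsf11 by 3.27 and 2.67, and Tcf7 by 2.25 and 2.13. Ikzf2 was lower by 3.96 and 3.19 log2 units, a gene of the regulatory lineage that the rule did not use. Ccr6 was at 56.4 and 53.5 CPM in Foxp3 cells and at 20.3 and 5.90 CPM in IL-17-negative cells.

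Against the γδ T cells with an IL-17 UMI, 56 of 1877 genes (2.98%) were higher in Th17 cells and 38 (2.02%) lower. These are 13 and 38 cells, and the ranges of single genes are wide. Among those higher were Cd6, by 3.54 and 5.54 log2 units, and Tnfrsf4, by 5.49 and 4.49. Il22 was at 205 and 167 CPM in the γδ T cells, below the Th17 level in both libraries. Il17a, which chose both populations, was at 4719.5 and 2075 CPM in the γδ T cells. Tmem176a, Ramp1 and Actn2 were at 551, 157 and 275 CPM in the γδ T cells of WT and at 859, 182 and 300.3 CPM in those of Ring1AKO, levels above those of Th17 cells in both libraries. The interval of the log2 ratio of Th17 over γδ T cells held 0 for Ramp1 in both libraries. It also held 0 for Tmem176a and Actn2 in WT. Smox was at 448 and 411 CPM in the γδ T cells.

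**Figure D5:**
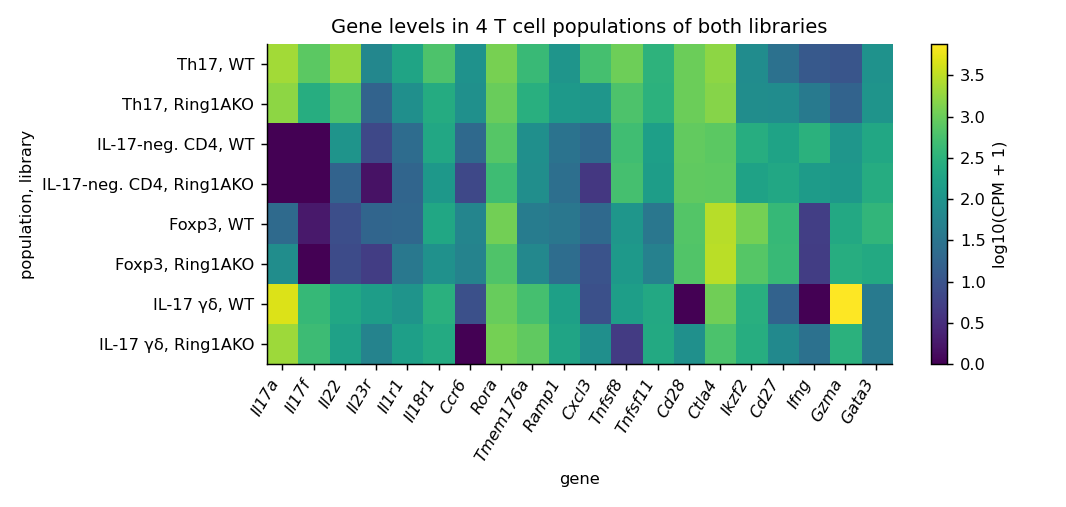
Gene levels as log10(CPM + 1) in Th17 cells, IL-17-negative conventional CD4 T cells, Foxp3 cells and γδ T cells with an IL-17 UMI, each in the libraries labelled WT and Ring1AKO. Il17a and Il17f are at 0 in the IL-17-negative cells by the rule, Il22 is highest in Th17 cells of both libraries, and Tmem176a is high in Th17 and γδ T cells.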

How the data were processed

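Live CD45+ cells of the colonic LP were profiled in 1 WT and 1 Ring1AKO library by 10x Genomics 3′ chemistry. The authors counted UMIs with Cell Ranger, and the deposited matrices hold raw counts per gene and barcode, unfiltered, without normalization. The matrix header names Cell Ranger 4, and the submitters' processing notes name version 6.0.2 with mm39. The study's methods name a version other than these and mm10, so the build behind the counts is not settled, and genes were matched by gene ID. The matrices held 74414511 and 81862096 UMIs in all, for 32228 genes. Computations ran in Python 3.11.15 (scipy 1.17.1, numpy 2.4.6, pandas 2.3.3).

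Cells were kept and members chosen as stated above. Cd163l1, listed under a newer symbol, was matched by gene ID. B cells had at least 2 Cd79a UMIs and 0 of the CD3 genes and Csf1r. Foxp3 cells met the CD3 limit with a Foxp3 UMI, and γδ T cells with a Trdc or Cd163l1 UMI and none of Cd4 or Cd40lg, both without the other excluded genes. T cells had at least 2 CD3 UMIs with Cd79a and Csf1r at 0. CPM intervals are exact Poisson, shares Clopper-Pearson, ratios of genes exact and conditional on the counts, and ratios of shares from a normal approximation on the log scale. Genes needed at least 50 UMIs over both libraries, or over both populations in each library. A gene was beyond counting error where its interval excluded a log2 ratio of 0. Barcodes below 100 UMIs were taken as cell-free. The ratio was tested on simulated data, with no outcome given here. No doublet step was used, and 11 barcodes were shared between the kept cells of the libraries, none of them members.

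The members and the 29 gene lists were chosen with earlier results of these data known. Named genes are the listed genes past 2-fold or most abundant, the 10 with the largest rise and fall, the 15 highest and 10 lowest against IL-17-negative cells with at least 100 CPM, and others said to be chosen later. Promoter sequences came from RefSeq (GRCm38.p6) and gene coordinates from GENCODE on GRCm38, matched by gene ID. Alternatives to the filters, the rule, depth and scaling were tried. Some genes of the lists are not reported here.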

Additional observations from a re-analysis of the deposited data

Results flagged for a closer look

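The γδ T cells with an IL-17 UMI moved opposite to the Th17 cells between the libraries, with a log2 ratio of the share of kept cells of 1.15 against -1.32, and the difference was not tested.

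A set of 6 listed genes was past 2-fold with an interval beyond 0 in Th17 cells and had an interval on the other side of 0 in IL-17-negative conventional CD4 T cells, and none of these differences was tested. Ezh2 had a log2 ratio of 1.00 in Th17 cells and of -0.58 (-0.98 to -0.18) in IL-17-negative cells. In Foxp3 cells the ratio of Ezh2 was above 0 as in Th17 cells, 0.89 (0.34 to 1.46). With at least 2 IL-17 UMIs required, the ratio of Ezh2 in Th17 cells was 0.36. For Hspa1a, a heat shock gene, the ratios were 1.08 and -0.59 (-0.70 to -0.48). For its cochaperone Dnajb1 they were 1.06 and -0.71 (-0.88 to -0.55), with 58.3% of its Ring1AKO UMIs in 1 cell. In Th17 cells the ratio of Hspa1a was 0.25 with no exclusion genes, and that of Dnajb1 was -0.33 where Cd40lg was not used. In Foxp3 cells these 2 ratios were below 0, -0.74 (-0.92 to -0.56) for Hspa1a and -0.30 (-0.60 to -0.0017) for Dnajb1. Il4 had 2.62 and -1.19 (-1.51 to -0.88), and Il13 had 2.60 and -0.53 (-1.01 to -0.05), the latter from 1 Ring1AKO cell. Il1b had 1.39 and -1.73 (-2.03 to -1.45), and -0.02 in Th17 cells without the member with dendritic transcripts.

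Barcodes with fewer than 100 UMIs, which the comparisons do not use, held 978 Il17a UMIs (100.2 CPM, 94.0 to 107) in WT and 488 (55.4 CPM, 50.6 to 60.6) in Ring1AKO. Il17a was at 2.13 and 1.32 CPM in the B cells of these libraries.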

How the results depend on the processing

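No paired analysis was possible because WT and Ring1AKO had 1 library each. The share of Th17 cells among kept cells, T cells and conventional CD4 T cells stayed lower in Ring1AKO under all alternatives run. With the cells thinned to 2000 UMIs before the rule, which left 49 and 16 members, the log2 ratios were -2.00, -1.67 and -1.13. With 6 more exclusion genes, Jchain among them, 3 and 1 members were left, the ratios were -1.98 of kept cells and -1.50 of T cells, and gene levels could not be compared. The counts of genes past 2-fold moved. Without exclusion genes, which gave 155 and 84 members, 245 genes were higher and 232 lower, with a minimum of 20 UMIs 317 were higher and 430 lower, and with members thinned to 2000 UMIs 18 were higher and 35 lower. Among genes of which no cell held over 25% of the UMIs, 51 were higher and 147 lower, a setting added after the data were seen. Against IL-17-negative cells, thinning gave 25 higher and 22 lower, and the minimum of 20 UMIs 77 and 125.

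Of the 82 genes rerun whose interval lay beyond 0, those that changed sign were Tyrobp (-0.65 without exclusion genes, -1.24 with at most 20000 UMIs per cell and -1.47 without the member with dendritic transcripts), Ifitm1 (-0.60), Ifitm3 (-0.86), Maf (0.060) and Nfkbiz (-0.13) without exclusion genes, Dnajb1 (-0.33) where Cd40lg was not used, Gzmb (-0.091) as a mean over cells, and, at 2000 UMIs per cell, Il17a (0.018), Il18rap (0.79), Il2ra (-0.077), Pgam1 (-0.077) and Tmem176a (0.044). Tmem176b, Ccr6, Tnfsf11, Smox, Lamc1, Ramp1 and Ring1, whose intervals held 0, also took both signs. The cause was not tested. Of 49 named genes past 2-fold, 28 were under 2-fold in at least 1 alternative. Among them were Ccr2 at -0.74, Ube2c at -0.76, Zfp36 at 0.14 and Hspa1a at 0.25 without exclusion genes, Runx1 at -0.49 and Top2a at -0.54 at 2000 UMIs per cell, Ccr7 at 0.72 as a mean over cells and Ezh2 at 0.36 with at least 2 IL-17 UMIs. In all, 62 of the 90 genes rerun had a value outside their counting interval in at least 1 alternative, apart from the sign changes given. The log2 ratio of Il22 ranged from -2.25 to -1.23 and that of Il23r from -2.54 to -1.74. With 48 Ring1AKO members and 1 library per genotype, genes of fewer than 50 UMIs were left out of the counts.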
